A study of Mus musculus with 6 samples.

Results

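The genes C1qb, Cd68 and Laptm5, which mark macrophages, were followed through a comparison of adrenal gland RNA from mice with and without PACAP, a neuropeptide released by the splanchnic nerve onto the chromaffin cells of the adrenal medulla. The members were all clones whose annotated symbol is one of these 3 genes, and 5 of the 36013 clones on the array met that rule: 2 of C1qb, 1 of Cd68 and 2 of Laptm5. They are told apart below by their print block, the area of the slide printed by 1 pin. The wild-type group was 129XC57BL6 PACAP +/+ F2 and the knockout group 129XC57BL6 PACAP -/- F2. On each of 6 spotted cDNA arrays a wild-type RNA in Cy5 (red) met a knockout RNA in Cy3 (green). The dyes were never exchanged, so a dye effect of a clone and an effect of genotype cannot be told apart. The labels do not say whether the arrays held RNA of separate animals, and p-values then cover only array-to-array spread, possibly of technical origin. Age and sex are not given in the sources used here.

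Macrophages are resident in the adrenal gland, where they lie among the steroid-producing and chromaffin cells and along the sinusoids and clear dying cells. C1qb encodes the B chain of C1q, the recognition molecule of the classical complement pathway, which in most tissues is made mainly by macrophages. Cd68 encodes a heavily glycosylated membrane protein of late endosomes and lysosomes, and Laptm5 a lysosomal membrane protein of blood-derived cells that binds Nedd4-family ubiquitin ligases and lowers the surface level of antigen receptors. RNA came from the whole gland, in which more cells of a type and more RNA per cell cannot be told apart.

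The factor PU.1, which directs macrophage development, binds purine-rich sequences such as GAGGAA. These letters were searched on both strands in the 250 bases before each gene's start (RefSeq, GRCm38.p6) because all 3 members are expressed in the lineage that PU.1 directs. Each member had 1 match, and 7639 of 32851 windows of this length (23.3%) had at least 1. The stretches around the matches are printed 5′ to 3′ on the strand of the gene, with the matched letters (GAGGAA, or TTCCTC on the other strand) in capitals.
C1qb: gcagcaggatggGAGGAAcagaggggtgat
Cd68: tttcttaccaatGAGGAAagggcttcccat
Laptm5: gcagcctgtggcTTCCTCttttttgttctg
The C1qb stretch lies at chr4:136886213-136886242 on the minus strand and its match begins at position -30 from the start. That of Cd68 lies at chr11:69666378-69666407 on the minus strand, with the match at -225. That of Laptm5 lies at chr4:130913266-130913295 on the plus strand, with the match at -38. This window is overlapped by a second annotated gene, Gm38599, and by the annotation of Laptm5 itself, so it is not wholly outside the gene. The matches describe letters only, since no binding was measured.

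All ratios are log2 of knockout over wild type, from background-subtracted spot intensities. The quality filter kept between 26027 and 31960 of 37632 spots on an array. The median red signal was 1.37 times its local background on array 2 and 1.14 times on array 4, against 1.65 to 4.79 times on the other arrays, while the green signal was 5.39 to 7.07 times its background. Adcyap1, which encodes PACAP, was not tested here and gave no check of the labels. Ratios were first normalized over the whole array (global loess). A clone was called when its p from limma, adjusted by the Benjamini-Hochberg method over all 28708 clones tested, was under 0.05. The mean ratio of a print block ranged from -0.57 to 0.56, and 46.9% of the variance of the clones' mean ratios lay between the 48 blocks. Values are therefore given also after print-tip loess, which normalizes every block separately.

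Of the 5 member clones, 4 were called after global loess, beside 30.4% of all clones. The 3 higher in the knockout were C1qb of block 34, Cd68, and Laptm5 of block 29, where 16.2% of all clones were called higher. The 1 lower was the other Laptm5 clone, of block 10, where 14.2% of all clones were called lower. The deposited value table, centred per array, had another split over all clones, with 7295 of 9917 calls higher against 4646 of 8732. After print-tip loess 1 of the 5 was called, C1qb of block 34, beside 11.4% of all clones (6.74% higher and 4.62% lower). Of the 3 genes, after global loess C1qb had 1 of 2 clones called, Cd68 its 1 clone, and the Laptm5 clones were called in opposite directions. After print-tip loess neither Laptm5 clone was called, nor was Cd68.

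**Figure D1:**
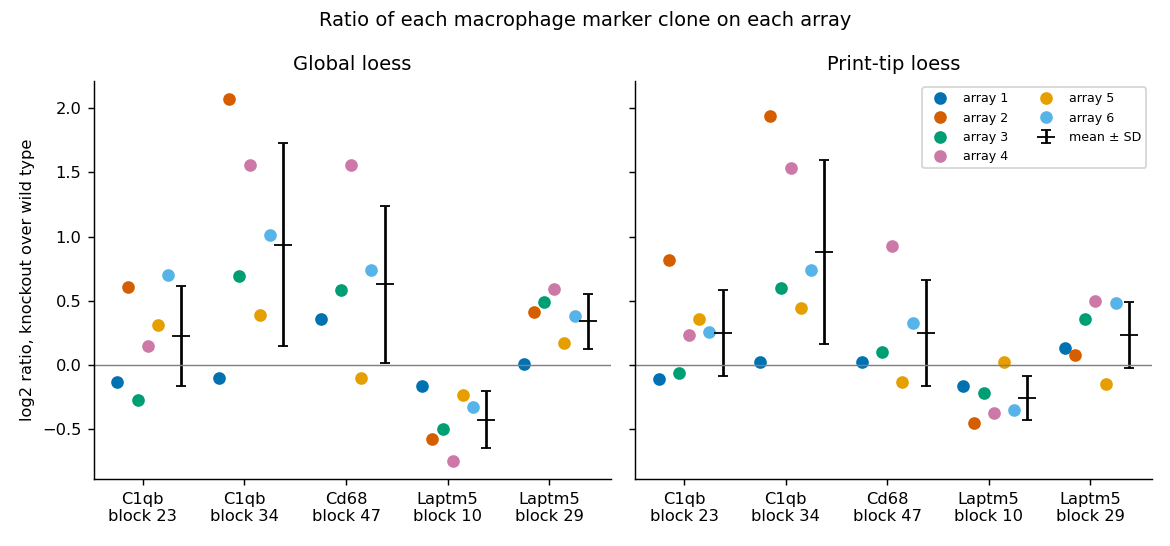
Log2 ratio of knockout over wild type (y axis) of each member clone on each array (points), after global loess (left) and print-tip loess (right), with the mean and SD as bars. C1qb of block 34 lies highest on arrays 2 and 4 in both panels, and after global loess the Laptm5 clones lie on opposite sides of 0 on all 6 arrays.

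The C1qb clone of block 34 had the largest ratio of the member clones. Its red (wild-type) intensities on arrays 1 to 6 were 2454, 433, 1107, 334, 1029 and 626, and its green (knockout) intensities were 2732, 4237, 3842, 2948, 2940.3 and 3992. The red signal thus varied more between arrays than the green, and it was dimmest on arrays 2 and 4. After global loess the log2 ratios were -0.10, 2.07, 0.69, 1.56, 0.39 and 1.01, which puts 5 of 6 arrays above 0, with the highest values on the arrays of dimmest red signal. The mean was 0.94 ± 0.22 (SE, n = 6; SD 0.79), or 1.92-fold higher in the knockout (limma, adjusted p = 0.00777). The exact two-sided sign-flip permutation test over the 6 arrays gave p = 0.0625, where 0.0312 is the smallest it can give.

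Print-tip loess left this ratio at 0.88 ± 0.22 (SE, n = 6; limma, adjusted p = 0.0367), in a block whose mean ratio was 0.04. The ratios were then 0.02, 1.94, 0.60, 1.53, 0.44 and 0.74, above 0 on all 6 arrays (exact two-sided permutation p = 0.0312, the smallest possible). Compared with all clones on the same array, the clone lay at the 54.1st percentile on array 1 and at the 95.5th to 99.3rd on arrays 2 to 6. Arrays 2 and 4 carried much of the mean: without both, it was 0.50 after global loess (limma, adjusted p = 0.105) and 0.45 after print-tip loess (adjusted p = 0.121). After print-tip loess the call was also lost without array 2, 3, 4 or 6 alone (means 0.67 to 0.93, limma adjusted p 0.0683 to 0.103). In those fits only 1 clone of the whole array was called without array 2, 3 or 6 and 19 without array 4, so the loss was common to nearly all clones. The part that the weak red signal of arrays 2 and 4 has in the result was not tested.

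The second C1qb clone, of block 23, did not pass the threshold. Its red intensities were 1164, 80.1, 444, 384, 493.4 and 115 on arrays 1 to 6, and its green intensities were 1318, 361, 909.9, 1349.7, 1396 and 906. On array 2 its background-subtracted red signal was smaller than the local background of 119.7 that had been removed. The log2 ratios were -0.13, 0.61, -0.27, 0.15, 0.31 and 0.70, on both sides of 0, with a mean of 0.23 ± 0.15 (SE, n = 6; limma, adjusted p = 0.25). Print-tip loess gave 0.25 ± 0.12 (adjusted p = 0.168), again in a block with a mean ratio of 0.04. Under the 25 other ways of processing the values lay between 0.11 and 0.57, and the clone was called under none of them by limma.

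The C1qb clones differed in the size of their ratio. The clone of block 34 exceeded that of block 23 by 0.03, 1.47, 0.96, 1.41, 0.08 and 0.32 on arrays 1 to 6, a mean difference of 0.71 ± 0.65 (SD, n = 6; exact two-sided permutation p = 0.0312, the smallest possible; 0.0312 adjusted over the 2 clone pairs). The gap was near 0 on arrays 1 and 5 and widest on arrays 2 and 4. After print-tip loess it was 0.63 ± 0.50 (SD, n = 6) and above 0 on all 6 arrays. The exact two-sided permutation test then gave p = 0.0312, the smallest possible, and 0.0625 adjusted over the 2 clone pairs. The mean of both clones was 0.58 ± 0.53 (SD, n = 6).

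**Figure D2:**
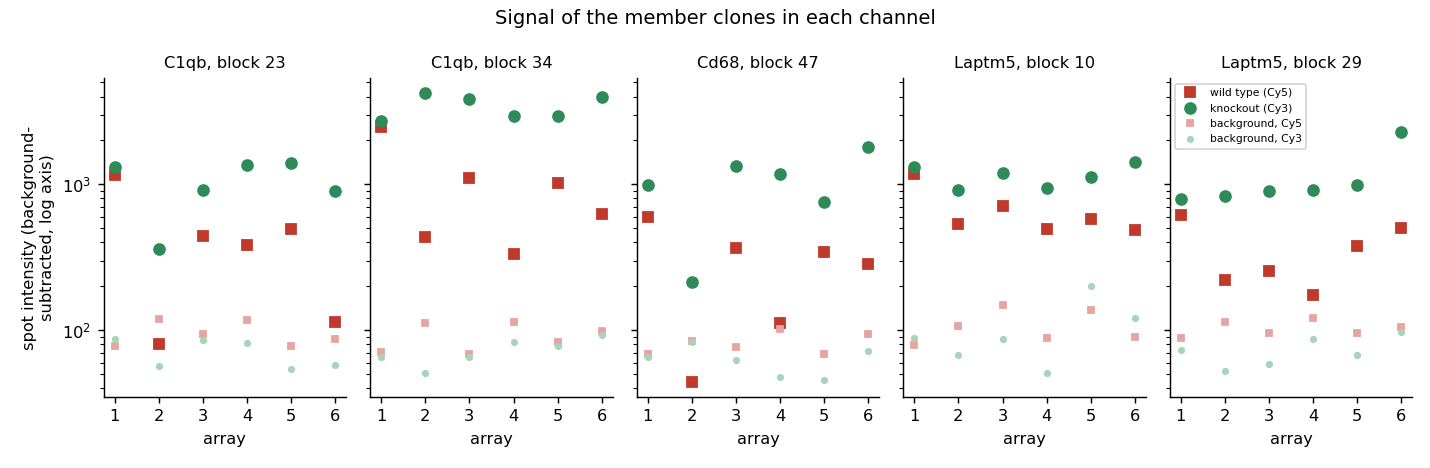
Background-subtracted spot intensity (y axis, log scale) of each member clone in the wild-type channel (squares) and the knockout channel (circles) on arrays 1 to 6, with the local background in pale symbols. The green signal exceeds the red for every clone on every array before normalization. On array 2 the background-subtracted red signal of Cd68 and of C1qb of block 23 is smaller than the background that had been removed.

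Cd68 had 1 clone, of block 47, measured on 5 arrays. Red intensities were 602, 43.9, 365, 112, 346 and 283 on arrays 1 to 6, and green intensities were 990.2, 213, 1333, 1177, 756 and 1797. The spot of array 2 did not pass the quality filter, with a score of 0.1, and the fit left it out. Its background-subtracted red signal was smaller than the local background of 84.4 that had been removed. The remaining ratios were 0.36, 0.58, 1.56, -0.10 and 0.74 on arrays 1, 3, 4, 5 and 6. Of these, 4 of 5 lay above 0 and array 4 stood highest, with a red intensity of 112. The mean was 0.63 ± 0.20 (SE, n = 5; SD 0.61), or 1.55-fold higher in the knockout (limma, adjusted p = 0.0293). The exact two-sided permutation test gave p = 0.125, where 5 arrays cannot go below 0.0625.

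The Cd68 call was lost after print-tip loess, which gave 0.25 ± 0.15 (SE, n = 5; limma, adjusted p = 0.265). Block 47 had a mean ratio of 0.29, so that about as much of the ratio was shared by the other spots printed there as remained. The ratios were then 0.02, 0.10, 0.93, -0.13 and 0.33. Without array 4 the mean after global loess was 0.39 (limma, adjusted p = 0.136), and the call was also lost without array 3 or array 6 (means 0.64 and 0.60).

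Laptm5 of block 10 was lower in the knockout after global loess. Red intensities were 1186, 532, 706, 498, 578 and 484 on arrays 1 to 6, and green intensities were 1312, 920.5, 1188, 944, 1128 and 1414. The background-subtracted red signal was larger than the removed local background on all arrays. The ratios of -0.16, -0.58, -0.50, -0.75, -0.23 and -0.33 were below 0 on all 6. The mean was -0.43 ± 0.12 (SE, n = 6; SD 0.22; limma, adjusted p = 0.0198; exact two-sided permutation p = 0.0312, the smallest possible). Its block had a mean ratio of -0.21. After print-tip loess the clone stood at -0.26 ± 0.08 (SE, n = 6; limma, adjusted p = 0.0698) and did not pass. The call after global loess was lost without array 2, 3 or 4 (means -0.41 to -0.36, adjusted p 0.0573 to 0.0835).

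Laptm5 of block 29 was higher in the knockout after global loess, close to the threshold. Red intensities were 612, 222, 254, 174, 375 and 502, and green intensities were 796, 836, 906, 914, 982 and 2270.1. Array 6 had the brightest green spot, and the ratios of 0.01, 0.41, 0.49, 0.59, 0.17 and 0.38 were above 0 on all 6 arrays. The mean was 0.34 ± 0.12 (SE, n = 6; SD 0.21; limma, adjusted p = 0.0473; exact two-sided permutation p = 0.0312). Print-tip loess gave 0.23 ± 0.10 (SE, n = 6; limma, adjusted p = 0.137), with array 5 below 0, in a block with a mean ratio of 0.08. The call was lost without array 2, 3, 4, 5 or 6 (means 0.29 to 0.38, adjusted p 0.0575 to 0.156), which leaves it only where array 1 was the array removed.

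The Laptm5 clones therefore gave no common direction, although both carry the same gene title and UniGene cluster in the scanner files. The clone of block 29 exceeded that of block 10 by 0.18, 1.00, 0.99, 1.34, 0.40 and 0.72 on arrays 1 to 6, a mean of 0.77 ± 0.43 (SD, n = 6; exact two-sided permutation p = 0.0312, the smallest possible; 0.0312 adjusted over the 2 clone pairs). After print-tip loess the gap was 0.49 ± 0.38 (SD, n = 6), above 0 on 5 of 6 arrays (exact permutation, adjusted p = 0.0625). The mean of both clones stayed near 0 on every array, between -0.09 and 0.02, and averaged -0.04 ± 0.05 (SD, n = 6). Of 2917 genes with exactly 2 tested clones, 94 (3.22%) had clones called in opposite directions after global loess and 7 (0.24%) after print-tip loess. The Laptm5 gap was wider than that of 86.8% of these genes and the C1qb gap wider than that of 84.4%, against 89.4% and 95.1% after print-tip loess. Which stretch of the transcript each clone covers was not analysed here.

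**Figure D3:**
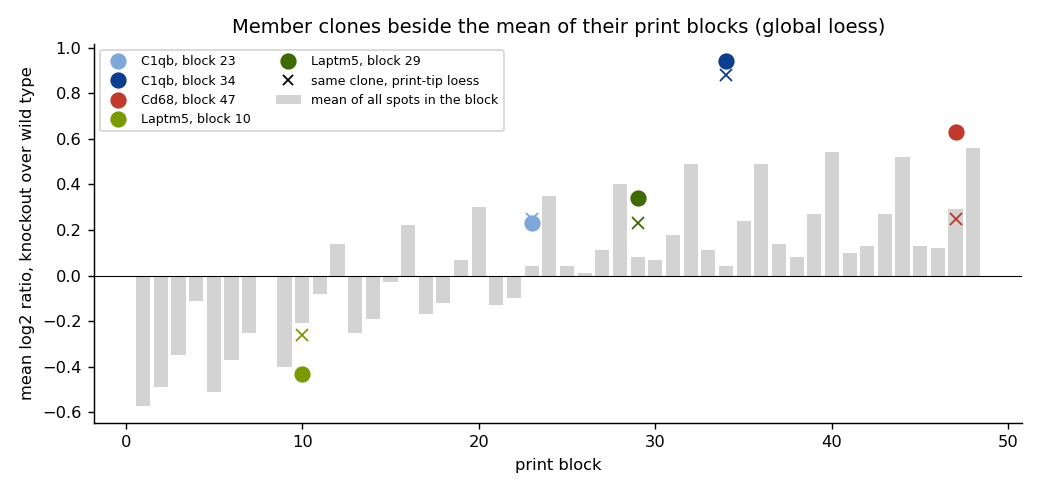
Mean log2 ratio of knockout over wild type (y axis) of all spots in each of the 48 print blocks (grey bars) after global loess, with the member clones in their blocks (circles) and the same clones after print-tip loess (crosses). Cd68 and Laptm5 of block 10 lie in blocks whose means have their sign, 0.29 and -0.21, and C1qb of block 34 in a block with a mean of 0.04.

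The other macrophage markers showed no common direction. The list of 35 such genes had 15 with a clone and 10 that were tested, each by its clone of highest mean signal, as in the lists below. Of the 10, 1 rose, 1 fell and 8 did not pass, with a median of 0.02, which was also the median over all clones tested. After print-tip loess none of the 10 passed by limma, 4 had an unadjusted p under 0.05, and the median was 0.00. Of the defining markers, Adgre1, Csf1r and Tyrobp had no clone assigned to them alone, and Cd14 and Aif1 passed the quality filter on 1 array each, so the label of the gene set could be checked only in part. Lyz2, the lysozyme of macrophages and granulocytes, stood at -0.05 ± 0.14 (SE, n = 6; limma, adjusted p = 0.83), with arrays between -0.47 and 0.55; print-tip loess gave 0.03 (adjusted p = 0.857). The list mean per array ran from -0.09 to 0.33, and its part in the member results was not tested.

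Among Fc receptors, which bind antibody on phagocytes, the changes ran both ways. Fcgr1, the high-affinity IgG receptor, was higher at 0.88 ± 0.28 (SE, n = 6; limma, adjusted p = 0.0271), close to C1qb of block 34. This was 1 of its 2 tested clones, and the other was not called. The call was lost without array 2, 4 or 6, the ratio was 0.48 without arrays 2 and 4 (adjusted p = 0.289), and print-tip loess gave 0.78 (adjusted p = 0.0724). Fcgr3, a low-affinity IgG receptor, was lower at -0.44 ± 0.11 (SE, n = 6; limma, adjusted p = 0.0123), and print-tip loess gave -0.22 (adjusted p = 0.106). The third in the list, Fcer1g, did not pass by its clone of highest mean signal, at 0.11 ± 0.13 (SE, n = 6; limma, adjusted p = 0.553). Its other clone was called higher after global loess.

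The other chains of C1q did not pass the threshold. C1qa, the A chain, had clones at 0.08 ± 0.12 (block 15; SE, n = 6; limma, adjusted p = 0.66) and at 0.15 ± 0.17 (block 8; adjusted p = 0.515), where print-tip loess gave 0.14 and 0.22 (adjusted p = 0.211 and 0.295). C1qc, the C chain, stood at 0.18 ± 0.13 (SE, n = 6; limma, adjusted p = 0.32), and print-tip loess gave 0.12 (adjusted p = 0.379). These values lie beside the 0.23 of C1qb of block 23 and below the 0.94 of C1qb of block 34; the differences between chains were not tested. Of the 12 complement genes tested, by the clone of highest mean signal none rose, 1 fell and 11 did not pass, with a median of 0.13. Serping1, the inhibitor of the C1 proteases, was lower at -0.48 ± 0.13 (SE, n = 6; limma, adjusted p = 0.0152), lost the call without array 3, and stood at -0.00 after print-tip loess, in a block with a mean of -0.51. After print-tip loess 1 complement gene rose and 2 fell by the same clones. These were Calr, a chaperone that also binds C1q, at 0.45 (limma, adjusted p = 0.0287), Cfi, the protease that inactivates C3b and C4b, at -0.37 (adjusted p = 0.0376), and Cd93 at -0.39 (adjusted p = 0.0322), whose spot bears another gene's title in the scanner file. Already after global loess another clone of Calr was called higher and another clone of Cd93 lower.

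A list of lysosomal genes, the compartment of both Cd68 and Laptm5, which also holds the cytosolic ubiquitin ligase Nedd4, had 14 of 17 genes tested. By the clone of highest mean signal, 2 rose, 1 fell and 11 did not pass, with a median of 0.17. Among these 11, Lamp2, Ctsb, Ctsd, Ctsz and Nedd4 each had another clone called higher after global loess, and none had a clone called lower. After print-tip loess 3 rose by the clone of highest mean signal, the lysosomal Laptm4a and Npc1 and the ligase Nedd4, none fell, and the median was 0.27. Laptm4a, a paralog of Laptm5, had both clones higher, at 0.92 ± 0.23 (block 30; SE, n = 6; limma, adjusted p = 0.0096) and 1.36 ± 0.20 (block 44; adjusted p = 0.000981). On arrays 1 to 6 the block 30 clone read -0.21, 1.92, 0.48, 1.54, 0.39 and 1.41, which like C1qb of block 34 was highest on arrays 2 and 4. Without these arrays its ratio was 0.52 (limma, adjusted p = 0.136), and print-tip loess with all arrays gave 0.82 for block 30 (adjusted p = 0.0436) and 0.71 for block 44 (adjusted p = 0.0512). Ctsl, the protease cathepsin L, rose by 0.77 ± 0.17 (SE, n = 6; limma, adjusted p = 0.00486; 0.43 after print-tip loess, adjusted p = 0.0538). Lamp1, a major lysosomal membrane glycoprotein related to Cd68, had the clone of highest mean signal lower at -0.45 ± 0.12 (block 14; limma, adjusted p = 0.0141), lost without array 3 or 4, and another clone higher at 0.66 ± 0.21 (block 21; adjusted p = 0.0318). The other 3 Lamp1 clones, at 0.06 to 0.15, did not pass. After print-tip loess the clone of block 14 stood at -0.30 (limma, adjusted p = 0.0762), and the clones of block 21 (0.76, adjusted p = 0.046) and block 5 (0.70, adjusted p = 0.0486) were both called higher, so that no Lamp1 clones were then called in opposite directions. With print-tip loess Npc1, a lysosomal cholesterol exporter, stood at 0.63 (limma, adjusted p = 0.0306), and Nedd4, a ligase of the family that Laptm5 binds, at 0.50 (adjusted p = 0.0412).

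Markers of leukocytes in general also ran both ways. Of 8 tested, 1 rose, 2 fell and 5 did not pass, with a median of 0.06. Ptprc, the leukocyte antigen CD45, was lower at -0.47 ± 0.17 (SE, n = 5; limma, adjusted p = 0.0469), a call lost without array 2, 3, 4, 5 or 6. Lsp1, an actin-binding protein of leukocytes, was lower at -0.80 ± 0.16 (SE, n = 5; limma, adjusted p = 0.00435) and Was, which drives actin assembly in blood cells, higher at 0.53 ± 0.12 (SE, n = 6; limma, adjusted p = 0.00638). Their blocks had means of -0.57 and 0.49, and print-tip loess left -0.24 and -0.07. With print-tip loess none of the 8 passed by limma and 1 had an unadjusted p under 0.05.

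Genes of MHC class II, which present antigen on macrophages, dendritic cells and B cells, had the highest median of the 10 lists, 0.39 over 4 genes tested, of which 2 rose and none fell by the clone of highest mean signal. H2-Eb1, a beta chain with 2 of 3 clones called higher, rose by 0.83 ± 0.13 (SE, n = 6; limma, adjusted p = 0.00112), whichever array was left out. It lay in a block with a mean of 0.40 and stood at 0.40 after print-tip loess (adjusted p = 0.0678). H2-DMa, which loads peptide onto class II and had 1 of 2 clones called higher, rose by 0.49 ± 0.15 (SE, n = 6; limma, adjusted p = 0.029), a call lost without array 1, 3, 4 or 6, and stood at 0.44 after print-tip loess (adjusted p = 0.0697). H2-Aa did not pass by that clone, at 0.30, and its other clone was called higher after global loess. The spot of the clone at 0.30 bears another gene's title in the scanner file, a neutral amino acid transporter, and its value enters the medians given here. After print-tip loess none of the 4 passed by limma, 3 had an unadjusted p under 0.05, and the median was 0.35.

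Markers of other blood cells and of vessels were measured beside them. By the clone of highest mean signal, none of 3 lymphocyte, 3 granulocyte and 2 erythroid genes tested passed by limma after either normalization. By the same clones, 2 lymphocyte and 2 erythroid genes had an unadjusted p under 0.05 after global loess. Ltf, of the granulocyte list, had another clone called lower after global loess. Endothelium had 2 of 7 tested genes higher and none lower: Emcn, a sialomucin, at 0.58 (limma, adjusted p = 0.00957) and Eng, a TGF-beta co-receptor, at 0.42 (adjusted p = 0.032), a call lost without array 1, 2, 3 or 5. Print-tip loess left these at 0.31 and -0.03, and none of the 7 passed, with 2 at an unadjusted p under 0.05. Csf1, the growth factor of macrophages, varied between arrays from -2.05 to 0.33, with a mean of -0.49 ± 0.24 (SE, n = 6; limma, adjusted p = 0.13) and -0.48 after print-tip loess (adjusted p = 0.138). Il34, the other ligand of its receptor, stood at 0.20 (limma, adjusted p = 0.25) and, with the opposite sign, at -0.11 after print-tip loess (adjusted p = 0.464).

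**Figure D4:**
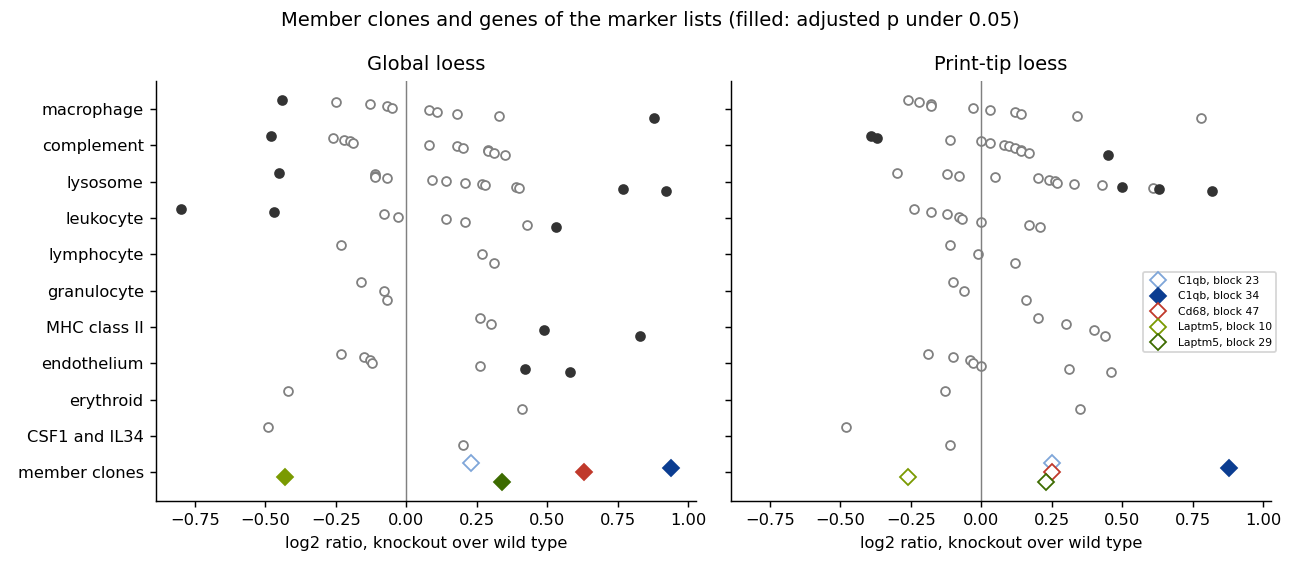
Log2 ratio of knockout over wild type (x axis) of each tested gene of the marker lists (circles, by the clone of highest mean signal) and of the 5 member clones (diamonds), after global loess (left) and print-tip loess (right), filled where the adjusted p from limma was under 0.05. The 10 macrophage genes lie on both sides of 0 with 2 filled on the left and none on the right, and of the member clones 4 are filled on the left and 1 on the right.

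Among 63 list genes tested, each by its clone of highest mean signal, 13 were called after global loess, beside 30.4% of all clones. Of these 13, 7 were called whichever array was left out. Without arrays 2 and 4 together, 11 of the 13 could be tested, Ptprc and Lsp1 having too few arrays. After global loess 3 of the 11 were then called, Was, H2-Eb1 and H2-DMa. After print-tip loess 6 were called, beside 11.4% of all clones. Nedd4 lost the call without array 5. Without array 2, 3, 4 or 6 all 6 genes lost it by limma, where at most 19 clones of the whole array were called. Their ratios kept their sign in these fits, at -0.44 to -0.32 for Cfi, 0.40 to 0.51 for Calr, -0.44 to -0.35 for Cd93, 0.61 to 0.99 for Laptm4a, 0.54 to 0.75 for Npc1 and 0.40 to 0.57 for Nedd4. Of the 5 member clones, without arrays 2 and 4 none was called by limma after global loess (2 with an unadjusted p under 0.05), beside 8.62% of all clones. None was called after print-tip loess (1 with an unadjusted p under 0.05), beside 0.347%.

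**Figure D5:**
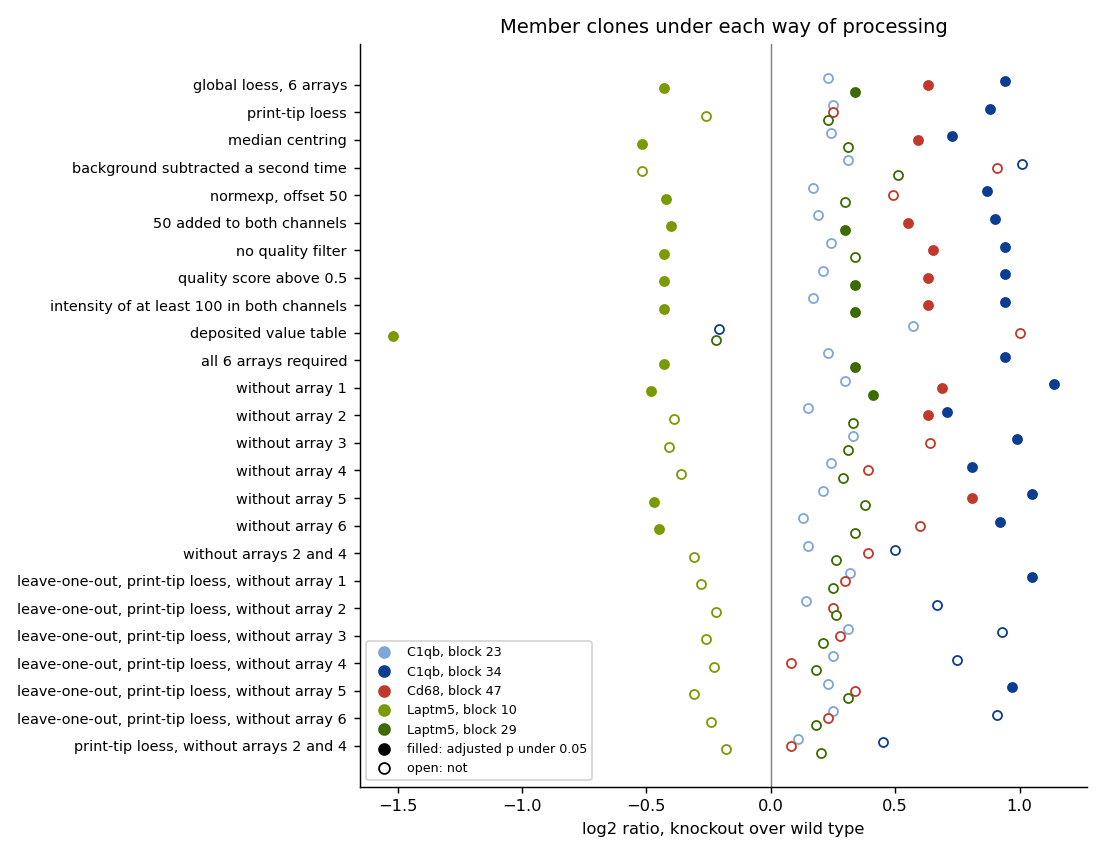
Mean log2 ratio of knockout over wild type (x axis) of the 5 member clones under each way of processing (y axis), filled where the adjusted p from limma was under 0.05. C1qb of block 34 stays above 0 in all settings except the deposited value table (-0.21), and Laptm5 of block 10 stays below 0 in all of them.

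The genes with the most similar ratios over the arrays were found by the root mean square difference of the log2 ratio over 6 arrays, among 8741 named genes. For C1qb of block 34 these were Tab2 (0.17), Dut (0.18) and Tssk6 (0.18). For Laptm5 of block 10, the clone of higher mean signal, they were Adgrg6 (0.05), Adam8 (0.07) and Smap1 (0.08). None was sought for Cd68, which lacks a value on array 2. The smaller differences of Laptm5 go with its narrower range over the arrays, from -0.75 to -0.16, against -0.10 to 2.07 for C1qb.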

How the data were processed

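Per the labels, adrenal RNA of both genotypes was hybridised to 6 arrays. The authors deposited spot intensity per channel, with local background already removed, as the median of 1.0 over 768 empty positions shows. The authors' quality score is a fraction from 0 to 1, and the series design text gives its minimum of 0.3. The deposited ratio (red over green, calibrated per array) was not used for tests. The series value table gives deposited log2 values (red over green), uncentred, which followed from the intensities after a second background subtraction and a floor. Versions of their software are not given in the sources used here.

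Its probes' gene annotation was linked to spots by value on all arrays (within 0.002): 35793 of 35873 lines (99.8%) met 1 spot. Of 36013 clones, 22364 had 1 gene, 1105 several and 12544 no listed gene. Log2 ratios of knockout over wild type were computed without the 1048 control or empty spots, normalized by loess (span 0.3), and tested against 0 with limma 3.58.1 (R 4.3.3) for clones on at least 4 arrays. The fit was tested on simulated data that had equal noise on all arrays and no print-block effect, unlike the arrays here. That test therefore does not bear on the calls reported. Python 3.11.15 with scipy 1.17.1 ran the exact sign-flip tests. The number of arrays limits the precision.

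The genes named are the members, the called genes of each marker list (by the clone of highest mean signal), the defining macrophage markers, and the 3 nearest patterns per member gene. Laptm4a block 44, the further Lamp1 clones, Fcer1g, and the genes named only for a call after print-tip loess or for a call of another clone were named after their values were seen. Members and lists were chosen with earlier results of these data known. Print-tip loess with arrays left out was added after seeing the data.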

Additional observations from a re-analysis of the deposited data

How the results depend on the processing

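Of the member results, C1qb of block 23 kept its direction and stayed uncalled under all 25 alternatives (0.11 to 0.57). C1qb of block 34 kept its call under 16 of 25, Cd68 under 8 of 24, Laptm5 of block 10 under 12 of 25 and Laptm5 of block 29 under 6 of 25. These alternatives include the exact sign-flip test, which Cd68 could not pass, since with 5 arrays it cannot go below 0.0625. The deposited value table, centred per array, turned C1qb of block 34 to -0.21, Laptm5 of block 29 to -0.22 and the difference between the C1qb clones to -0.78; the cause was not tested. The same table gave Cd68 1.00, no longer called, and a Laptm5 difference of 1.30.

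Of the 5 member clones, 4 were called under the reported fit, 1 after print-tip loess, 0 with the background subtracted a second time, 2 with normexp, 1 with the deposited table, 0 without arrays 2 and 4 after either normalization, 1 to 4 with 1 array left out, and 0 to 1 with 1 array left out after print-tip loess. Over all clones, 8732 were called under the reported fit, 3259 after print-tip loess, 2405 with the background subtracted a second time, 5640 with normexp, 2234 without arrays 2 and 4, and 90 without them after print-tip loess. Leaving out 1 array gave 4478 (without array 4) to 8656, and after print-tip loess 1 to 3768: 1 each without array 2, 3 or 6, and 19 without array 4.

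The calls were lost in the same direction as follows. Print-tip loess gave 0.25 for Cd68, -0.26 for Laptm5 of block 10, 0.23 for Laptm5 of block 29, and differences between clones of 0.63 (C1qb) and 0.49 (Laptm5). The C1qb difference lost the call only by adjustment over the 2 clone pairs, from an exact permutation p of 0.0312. A second background subtraction gave 1.01 for C1qb of block 34, 0.91 for Cd68, -0.52 and 0.51 for the Laptm5 clones, and differences of 0.70 and 1.03. Normexp gave 0.49 for Cd68 and 0.30 for Laptm5 of block 29. Laptm5 of block 29 stood at 0.31 after median centring and 0.34 without the quality filter. Median centring gave differences of 0.48 (C1qb) and 0.83 (Laptm5), and intensities of at least 100 gave 0.54 (5 arrays, where an exact p cannot go below 0.0625) and 0.77. Adjusted over both clone pairs, the Laptm5 difference could then not go below 0.0625 either, so neither could pass. Without arrays 2 and 4 the values were 0.50 (C1qb of block 34), 0.39 (Cd68), -0.31 and 0.26 (Laptm5), and differences of 0.35 and 0.57; after print-tip loess they were 0.45, 0.08, -0.18 and 0.20, and 0.34 and 0.38. With 4 arrays the exact test of a difference cannot go below 0.125, so these differences could not pass. The exact sign-flip test in place of limma left C1qb of block 34 (0.94) and Cd68 (0.63) past no threshold.

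With 1 array left out, C1qb of block 34 ranged from 0.71 to 1.14 (0.67 to 1.05 after print-tip loess), Cd68 from 0.39 to 0.81 (0.08 to 0.34), Laptm5 of block 10 from -0.48 to -0.36 (-0.31 to -0.22) and Laptm5 of block 29 from 0.29 to 0.41 (0.18 to 0.31). The differences ranged from 0.56 to 0.85 for C1qb and from 0.66 to 0.89 for Laptm5, where 5 arrays cannot give an exact p below 0.0625.

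The reported test already pairs the genotypes, since each ratio is taken within 1 array. No further pairing was possible, because the arrays form a single group with no second group of arrays to match by number. Each array is its own slide, so slide could not be a block. The median red signal was 1.14 to 4.79 times its background, lowest on arrays 2 and 4, and what this does to the ratios was not tested. Without exchanged dyes every ratio can hold a dye effect of the clone.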
